A study of Mus musculus with 16 samples.

Results

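The step from 100 to 150 nM beta-estradiol was read in G1E-ER4 cells. These are murine erythroid precursors without a working Gata1 gene of their own, into which GATA1 was put back as a fusion with the hormone-binding part of the estrogen receptor. The step was defined by dose alone, as 2 libraries of cells given 150 nM set against 2 libraries of cells given 100 nM, which are 4 of the 16 libraries of an 8-dose series, and all genes were followed. Every dose group shared the line, the fusion protein, which beta-estradiol brings into the nucleus, and a serum medium that also held erythropoietin and stem cell factor. The exposure time was not given in the sources used here. Nothing states that the 2 replicates of a dose came from separate cultures, so the p-values measure the spread between these libraries, which may be technical. Cells without the fusion are not among the groups, so effects of beta-estradiol that do not need GATA1 and effects of the fusion cannot be told apart. The results hold for a single line.

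GATA1 is the zinc-finger transcription factor that red cell precursors and megakaryocytes need to mature. In precursors it replaces GATA2 at shared sites, switches on the genes of globin, heme and the red cell membrane, and lowers genes of growth such as Myc and Kit. Maturing erythroblasts leave the cell cycle, stop making ribosomes, break down their mitochondria by autophagy and condense the nucleus.

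The libraries were made with Smart-seq2, which copies polyadenylated RNA along its length and does not keep the strand. They held 14268228 and 9393156 counts at 150 nM and 14499852 and 14155508 counts at 100 nM, over 23410 gene symbols, of which 10080 had enough counts to test. Globin genes took 4.46% and 4.56% of the counts at 150 nM and 2.79% in both libraries at 100 nM, and Rn45s, the ribosomal RNA precursor, took 13.4% and 14.1% at 150 nM and 13.1% and 13% at 100 nM. On the leading principal component of all 16 libraries, which held 82.3% of the variance, the libraries scored 60.7 and 61 at 150 nM and 29.7 and 29.6 at 100 nM. Of 8 erythroid markers, all were present in all 4 libraries, with a summed level of 17200 and 16900 CPM (counts scaled to a common library total) at 150 nM and of 10300 CPM in both libraries at 100 nM. In bulk RNA of this kind, more cells that express a gene and more of its RNA per cell cannot be told apart.

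Moving up by 50 nM changed a large share of the genes tested, but most of them by little. At 150 nM, 2081 genes were higher (20.6% of those tested) and 2039 were lower (20.2%) than at 100 nM, by edgeR's quasi-likelihood test with Benjamini-Hochberg adjusted p under 0.05. The median fold was 1.304 among genes called higher and 1.278 among genes called lower, and 3254 of the 4120 called genes changed by less than 1.5-fold. At least a 2-fold change was reached by 117 higher genes (1.16%) and 97 lower genes (0.962%). Of these, 39 of the higher genes lay under 1 CPM at 100 nM, and 26 higher and 9 lower genes reached 20 CPM. In 4112 of the 4120 called genes, all 4 pairings of a 150 nM with a 100 nM library went the same way. With 2 libraries a dose the call itself nearly requires this, so the count adds no support of its own. The even split depends on the scaling: with library totals alone in place of TMM factors, 4287 genes were called and 35% of them were higher, against 50.5% with TMM. The TMM factors were 0.911 and 0.909 at 150 nM and 0.963 and 0.966 at 100 nM, and the 20 most abundant genes took 24.2% and 25% of the counts at 150 nM and 21.7% and 21.6% at 100 nM. The plot of fold change against level shows how narrow the band of changes was for well-covered genes.

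**Figure D1:**
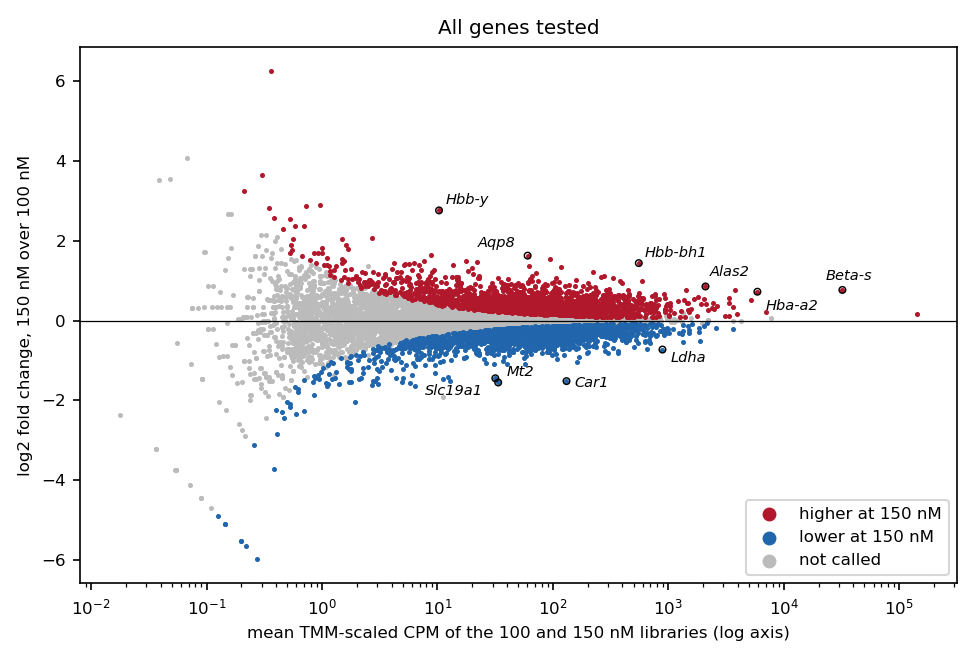
Log2 fold change of each tested gene at 150 nM over 100 nM (vertical axis) against its mean TMM-scaled CPM over the 4 libraries (horizontal log axis), with genes called higher at 150 nM in red, called lower in blue and the rest in grey. Above 20 CPM few genes passed a log2 change of 1, among them Hbb-bh1 at 1.44 and Car1 at -1.52.

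Among genes of at least 20 CPM, the highest log2 changes ran from 1.63 for Aqp8 to 1.16 for Cpz over 12 genes, and the lowest from -1.55 for Mt2 to -0.95 for Ydjc. Aqp8, a channel for water (chr7:123462294-123468003), had 89.1 and 93.6 CPM at 150 nM and 30.7 and 28.3 CPM at 100 nM, a log2 fold change of 1.63 ± 0.10 (SE) with an adjusted p of 4.46e-14. Matn1, a matrix protein best known from cartilage (chr4:130944385-130955476), had 135 and 146 CPM at 150 nM and 48.6 and 47.9 CPM at 100 nM, a rise of 1.54 ± 0.07 with an adjusted p of 1.48e-23. In both genes each 150 nM library was above each 100 nM library, as the choice of genes required, and by more than the replicates differed. Slc26a11, an anion transporter, had 25.8 and 26 CPM at 150 nM and 10.6 and 7.76 CPM at 100 nM, a change of 1.49 ± 0.17. Calcoco1, a receptor for autophagy of the endoplasmic reticulum, had 90.8 and 87.5 CPM at 150 nM and 33.7 and 35.5 CPM at 100 nM, a change of 1.37 ± 0.08. The replicates of Slc26a11 at 100 nM were further apart than those at 150 nM.

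Pink1, the kinase that marks damaged mitochondria for removal, had 26.5 and 25.9 CPM at 150 nM and 10 and 11.9 CPM at 100 nM (1.26 ± 0.15, adjusted p = 2.71e-09). Trp53inp1, a p53-induced gene that acts in autophagy, had 308 and 316 CPM at 150 nM and 138 and 131 CPM at 100 nM (1.22 ± 0.05, adjusted p = 1.82e-25). Both were higher in all 4 pairings of libraries, as the choice of genes required. The other members of this group were Plek, a kinase substrate of platelets and leukocytes, at 1.34 ± 0.06, Ypel3, a gene tied to growth arrest, at 1.32 ± 0.14, Tubb1, the beta-tubulin of platelets, at 1.19 ± 0.09, and Cpz, a secreted carboxypeptidase, at 1.16 ± 0.15. All were called, and the embryonic globins Hba-x and Hbb-bh1 are given with the globins.

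On the lower side, Mt2, a metallothionein that binds zinc and copper (chr8:94172618-94173567), had 16.1 and 18.4 CPM at 150 nM and 48.1 and 51.9 CPM at 100 nM, a change of -1.55 ± 0.08 with an adjusted p of 2.7e-21. Car1, a carbonic anhydrase of the red cell series (chr3:14766214-14808365), had 70.2 and 65 CPM at 150 nM and 186 and 203 CPM at 100 nM, a change of -1.52 ± 0.05 with an adjusted p of 1.45e-27. For both, each library at 150 nM was far below each library at 100 nM. Slc19a1, the reduced folate carrier (chr10:77032269-77050432), had 17.3 and 16.6 CPM at 150 nM and 44.7 and 48.2 CPM at 100 nM, a change of -1.45 ± 0.08. Tfr2, transferrin receptor 2, an iron sensor that pairs with the erythropoietin receptor (chr5:137569822-137588081), had 36.8 and 36.7 CPM at 150 nM and 77.4 and 79.7 CPM at 100 nM, a change of -1.09 ± 0.07. Slc29a1, a nucleoside transporter, had 74.4 and 73.2 CPM at 150 nM and 142 and 144 CPM at 100 nM, a change of -0.95 ± 0.05. No library at 150 nM reached the level of any library at 100 nM in these genes, as the choice of genes required.

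Among the remaining genes of that group were Smyd5, a lysine methyltransferase, at -1.09 ± 0.08, St6galnac4, a sialyltransferase, at -1.08 ± 0.09, and Fgf15, a growth factor best known as a gut hormone, at -1.07 ± 0.09. Bzw2, a regulator of translation initiation, had 103 and 110 CPM at 150 nM and 221 and 215 CPM at 100 nM (-1.04 ± 0.04). Snhg4, a host gene of small nucleolar RNAs, changed by -1.01 ± 0.08, Nefh, a neurofilament subunit, by -0.95 ± 0.09, and Ydjc by -0.95 ± 0.11. The 12 genes on either side are drawn library by library.

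**Figure D2:**
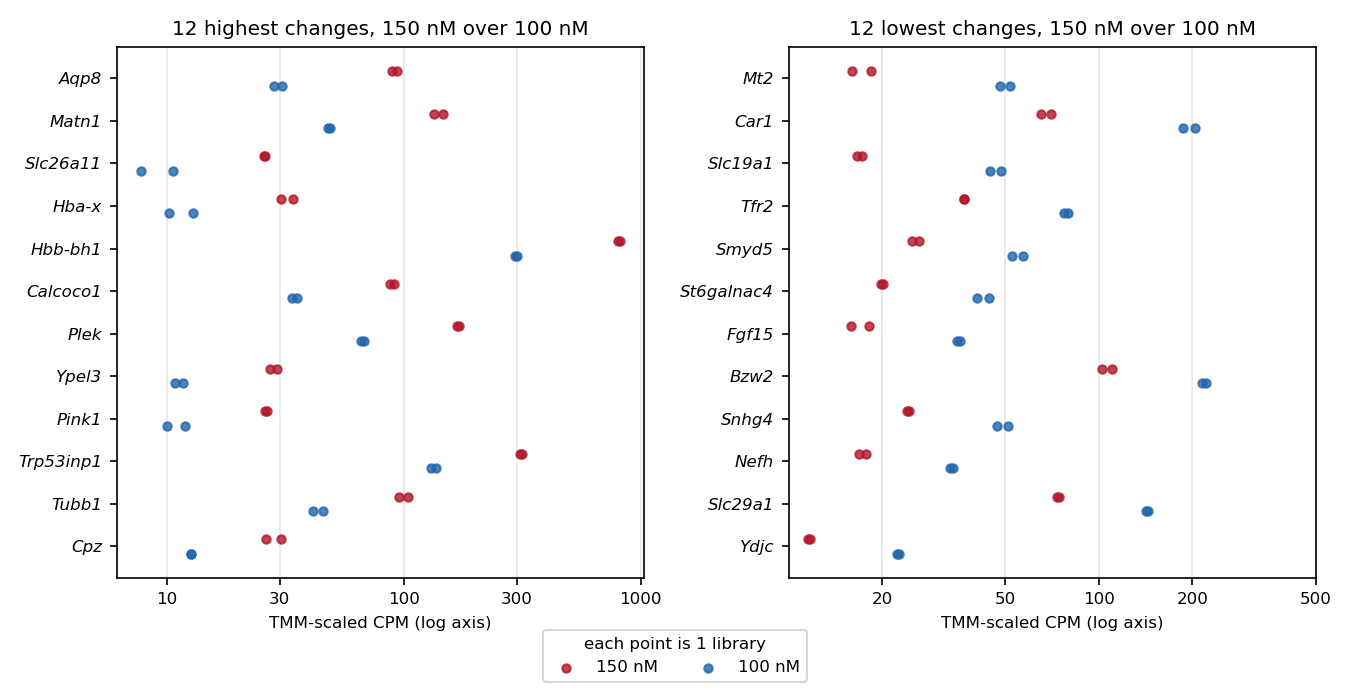
TMM-scaled CPM (log axis) of the 12 genes with the highest (left) and the 12 with the lowest (right) log2 fold change at 150 nM over 100 nM among called genes of at least 20 CPM, where each point is 1 library, red for 150 nM and blue for 100 nM. As the choice of genes required, the 150 nM and the 100 nM libraries are apart in all 24 genes. Aqp8, for example, had 89.1 and 93.6 CPM against 30.7 and 28.3 CPM.

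The promoters of the first 3 genes on either side with an entry in the RefSeq table, which leaves out Slc26a11 and Car1, are shown to let the letters known for GATA factors (AGATAA and TGATAA) and for MYC and other E-box factors (CACGTG) be read in place. Each window holds 250 bases before and 50 bases after the start annotated by RefSeq (GRCm38.p6, the same build as mm10), on the plus strand. The windows are chr7:123462044-123462343 for Aqp8, chr4:130944135-130944434 for Matn1, chr11:32276350-32276649 for Hba-x, chr8:94172368-94172667 for Mt2, chr10:77032489-77032788 for Slc19a1 and chr5:137569590-137569889 for Tfr2. Slc19a1 has 2 entries in the table and Tfr2 has 3, of which the first was used. Capitals mark a match on either strand.
Aqp8: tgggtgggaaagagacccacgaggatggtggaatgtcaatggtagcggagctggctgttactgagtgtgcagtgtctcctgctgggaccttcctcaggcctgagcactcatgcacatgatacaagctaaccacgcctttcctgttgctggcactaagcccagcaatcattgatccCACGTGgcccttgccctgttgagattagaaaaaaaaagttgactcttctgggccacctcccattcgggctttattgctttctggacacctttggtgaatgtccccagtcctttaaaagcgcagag
Matn1: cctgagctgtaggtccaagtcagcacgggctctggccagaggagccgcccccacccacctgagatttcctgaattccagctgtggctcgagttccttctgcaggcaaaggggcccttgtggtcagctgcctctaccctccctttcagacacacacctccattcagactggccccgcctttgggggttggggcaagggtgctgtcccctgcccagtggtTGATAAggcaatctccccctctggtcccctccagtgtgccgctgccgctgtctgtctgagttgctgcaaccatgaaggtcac
Hba-x: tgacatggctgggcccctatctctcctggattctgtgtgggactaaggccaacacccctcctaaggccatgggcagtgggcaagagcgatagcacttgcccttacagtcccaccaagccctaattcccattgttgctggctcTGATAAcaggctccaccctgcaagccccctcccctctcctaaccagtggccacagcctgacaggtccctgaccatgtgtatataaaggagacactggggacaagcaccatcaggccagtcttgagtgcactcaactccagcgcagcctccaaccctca
Mt2: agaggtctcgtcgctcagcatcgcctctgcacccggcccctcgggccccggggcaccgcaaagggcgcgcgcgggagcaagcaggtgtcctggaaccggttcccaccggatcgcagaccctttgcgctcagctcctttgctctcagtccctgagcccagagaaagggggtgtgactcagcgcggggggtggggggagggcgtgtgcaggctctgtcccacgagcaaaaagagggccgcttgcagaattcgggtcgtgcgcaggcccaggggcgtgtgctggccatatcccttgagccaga
Slc19a1: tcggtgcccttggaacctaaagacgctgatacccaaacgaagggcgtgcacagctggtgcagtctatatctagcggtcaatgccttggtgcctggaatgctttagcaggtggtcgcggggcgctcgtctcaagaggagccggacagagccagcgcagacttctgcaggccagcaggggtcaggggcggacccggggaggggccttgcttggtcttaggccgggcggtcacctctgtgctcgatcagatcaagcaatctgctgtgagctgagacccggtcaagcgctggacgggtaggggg
Tfr2: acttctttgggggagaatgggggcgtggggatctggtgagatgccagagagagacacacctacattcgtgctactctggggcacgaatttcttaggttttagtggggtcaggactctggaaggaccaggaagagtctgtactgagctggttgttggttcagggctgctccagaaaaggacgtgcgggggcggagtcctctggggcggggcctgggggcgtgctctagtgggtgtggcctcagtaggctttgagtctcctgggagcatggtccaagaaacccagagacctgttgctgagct

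In Aqp8, CACGTG begins 75 bases before the start, and in Matn1 and Hba-x, TGATAA begins 32 and 108 bases before it. The windows of Mt2, Slc19a1 and Tfr2 hold none of these letters. Of 32851 promoters of the same length, 11.2% hold AGATAA, 9.05% hold TGATAA, 18.6% hold either and 7.15% hold CACGTG. Among tested genes whose symbol matched the table, a GATA match stood in 10.7% of 1704 genes called higher, in 9.05% of 1647 called lower and in 9.74% of 4774 not called. CACGTG stood in 10.5% of genes called higher, 13% of genes called lower and 10.6% of genes not called. Among those at least 2-fold changed, a GATA match stood in 13.6% of 88 higher and 15.8% of 76 lower genes, and CACGTG in 6.82% and 7.89% of them. These shares describe letters in a short window, not binding.

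Each of the 6 globin genes tested rose, with a median log2 change of 1.21 against 0.01 over all genes tested. For this and every list below, the shares over all genes tested were 20.6% higher and 20.2% lower. The embryonic genes rose most. Hbb-y, the embryonic epsilon-type beta globin, had 17.8 and 18.2 CPM at 150 nM and 2.29 and 3 CPM at 100 nM, a log2 change of 2.76 ± 0.17 with an adjusted p of 4.64e-18. Hba-x, the embryonic alpha-type globin (chr11:32276600-32278116), had 34.2 and 30.2 CPM at 150 nM and 13 and 10.2 CPM at 100 nM, a change of 1.48 ± 0.13. Hbb-bh1, another embryonic beta-type globin (chr7:103841638-103843162), had 818 and 804 CPM at 150 nM and 296 and 301 CPM at 100 nM, a change of 1.44 ± 0.04. In these 3 genes the doses did not overlap, as in nearly all called genes. For Hba-x and Hbb-bh1 the choice of the 12 highest genes required it.

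The adult globins rose by less than 2-fold. Beta-s, an adult beta globin, had 39871 and 41234 CPM at 150 nM and 23848 and 23788 CPM at 100 nM, a log2 change of 0.77 ± 0.06. Hba-a2, an adult alpha globin, had 7428 and 7288 CPM at 150 nM and 4485 and 4430 CPM at 100 nM, a change of 0.72 ± 0.03 with an adjusted p of 4.65e-26. Hbb-b1, the second adult beta globin, had 773 and 795 CPM at 150 nM and 386 and 409 CPM at 100 nM, a change of 0.98 ± 0.08. Adult globin genes are near-identical copies and how reads with several matches were counted was not stated in those sources, so the adult globins are uncertain as single genes.

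The genes of heme synthesis rose as a broad group. Of 15 tested, 12 rose, none fell and the median change was 0.29. Alas2, the erythroid enzyme that starts heme synthesis, had 2748 and 2652 CPM at 150 nM and 1504 and 1482 CPM at 100 nM, a log2 change of 0.85 ± 0.03 with an adjusted p of 2.35e-27. Slc25a39, a carrier of the mitochondrial inner membrane, had 1778 and 1799 CPM at 150 nM and 1064 and 1053 CPM at 100 nM, a change of 0.76 ± 0.03. Fech, which puts iron into heme, changed by 0.43 ± 0.03 and Abcb10, a mitochondrial transporter of erythroid cells, by 0.44 ± 0.03. The 3 genes not called were Uros at 0.10 and Ppox at -0.02, both enzymes of the middle and late steps, and Alas1, the form of the first enzyme used by other tissues, at -0.01. These 3 are the whole remainder of the list, and are named after their values were seen.

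The red cell membrane and its skeleton followed the same direction, with 21 of 24 genes higher, 1 lower and a median change of 0.38. Slc4a1, the band 3 anion exchanger, had 4854 and 4671 CPM at 150 nM and 2819 and 2814 CPM at 100 nM (0.76 ± 0.03, adjusted p = 2.77e-26). Add2 and Sptb, adducin and spectrin of the skeleton, changed by 0.58 ± 0.03 and 0.52 ± 0.03, and Mpp1, a palmitoylated scaffold protein, by 0.58 ± 0.04. The 1 gene that fell was Piezo1, a stretch-gated channel, at 36.6 CPM on average at 150 nM and 53.5 CPM at 100 nM, a change of -0.54. It was picked out after its value was seen.

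Iron genes were split, with 8 of 17 higher and 3 lower, and 7 higher and 5 lower with library totals alone. Ftl1, ferritin light chain, had 5918 and 6349 CPM at 150 nM and 4276 and 4300 CPM at 100 nM (0.52 ± 0.03), Aco1, an iron-regulatory RNA-binding protein, changed by 0.51 ± 0.03 and Slc40a1, the iron exporter ferroportin, by 0.51 ± 0.03. The genes that fell were Tfr2, as given above, Slc11a2, an importer of ferrous iron, at -0.30, and Steap3, an iron reductase of endosomes, at -0.11. Fth1, ferritin heavy chain, averaged 3650 ± 36.6 CPM at 150 nM and 3681 ± 82 CPM at 100 nM (SD, n = 2 each) and was not called. Hmox1, which breaks heme down, averaged 11.7 CPM at 150 nM and 5.47 CPM at 100 nM, a change of 1.12. Slc11a2, Steap3, Fth1 and Hmox1 were picked out after their values were seen.

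Among transcription factors of the red cell series, 8 of 18 rose, 1 fell and 9 were not called, with a median change of 0.28. Gata1, whose counts cannot be divided between the fusion and any other transcript, had 1451 and 1390 CPM at 150 nM and 1261 and 1247 CPM at 100 nM, a log2 change of 0.18 ± 0.07. Its adjusted p was 0.0668, so it was not called, although its libraries did not overlap. DESeq2, a fit without the filter on low counts and a fit of the compared doses alone called it. Nfe2, a partner of the small Maf proteins at globin genes, had 621 and 627 CPM at 150 nM and 441 and 440 CPM at 100 nM (0.50 ± 0.03, adjusted p = 3.5e-17). Foxo3, a factor of late erythroblasts, changed by 0.50 ± 0.05, Mafk by 0.46 ± 0.05 and Gfi1b, a repressor, by 0.34 ± 0.03. Bcl11a, the repressor of fetal and embryonic globins, was the 1 gene that fell, at 125 CPM on average at 150 nM and 145 CPM at 100 nM, a change of -0.21, and was picked out after its value was seen.

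Factors and receptors of progenitors did not share a direction. Of 12 tested, 5 rose and 3 fell, and with library totals alone 3 rose and 4 fell. Gata2, the GATA factor of progenitors, had 30.8 and 26.1 CPM at 150 nM and 46.8 and 48.4 CPM at 100 nM, a log2 change of -0.73 ± 0.13 with an adjusted p of 0.000272. Myc, a driver of growth, had 132 and 133 CPM at 150 nM and 187 and 182 CPM at 100 nM, a change of -0.48 ± 0.04 with an adjusted p of 1.77e-13. Sfpi1, the gene of the myeloid factor PU.1, moved the other way, with 62.7 and 59.4 CPM at 150 nM and 32.7 and 33.2 CPM at 100 nM (0.89 ± 0.09). Fli1, a factor of megakaryocytes and progenitors, had 31.5 and 30.4 CPM at 150 nM and 14.8 CPM in both libraries at 100 nM (1.07 ± 0.12), and Hhex changed by 0.40 ± 0.08. In each of these genes the doses did not overlap, as in nearly all called genes.

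Of 13 genes around the erythropoietin receptor, 6 rose and 2 fell, and with library totals alone 5 rose and 4 fell. Without replicate 1 of 150 nM, 4 rose and 1 fell. Pim1 and Cish, targets of STAT5 signalling, changed by 0.41 ± 0.03 and 0.40 ± 0.04. Epor, the receptor itself, had 242 and 257 CPM at 150 nM and 226 and 218 CPM at 100 nM (0.17 ± 0.04, adjusted p = 0.00109), a call that was lost with library totals alone. Stat5a, a STAT of this pathway, was lower, with 32.1 and 33.8 CPM at 150 nM and 41.9 and 48.4 CPM at 100 nM (-0.46 ± 0.08).

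The machinery that clears organelles rose, and the proteasome fell. Of 23 autophagy genes 17 rose and none fell (median 0.36), of 21 lysosomal genes 11 rose and none fell (median 0.27), and of 16 ubiquitin enzymes known from red cell maturation 14 rose and none fell (median 0.43). Sqstm1, an adaptor that brings ubiquitin-marked cargo to autophagosomes, had 1007 and 981 CPM at 150 nM and 688 and 676 CPM at 100 nM (0.54 ± 0.03, adjusted p = 8.28e-20). Atg9a, a membrane protein of early autophagosomes, changed by 0.80 ± 0.05, Gabarap and Map1lc3b, which coat them, by 0.60 ± 0.04 and 0.57 ± 0.04, and Ctsb, the protease cathepsin B, by 0.67 ± 0.03. Ube2o, the enzyme that marks ribosomal proteins of reticulocytes for removal, had 165 and 160 CPM at 150 nM and 93.6 and 86.3 CPM at 100 nM (0.86 ± 0.06, adjusted p = 1.41e-17). All of these rose in each pairing of libraries, as nearly all genes called higher did. With library totals alone, and without replicate 2 of 150 nM, 1 autophagy gene was called lower.

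Of 31 proteasome subunits, 20 fell and 2 rose, with a median change of -0.11. Psmd7 had 343 and 321 CPM at 150 nM and 405 and 411 CPM at 100 nM (-0.29 ± 0.04), and Psmd3, Psma3 and Psmd12 changed by -0.30 ± 0.04, -0.25 ± 0.04 and -0.21 ± 0.04. Without replicate 1 of 100 nM 13 subunits fell and 1 rose, without replicate 2 of 100 nM none rose, and without replicate 2 of 150 nM 1 rose. With library totals alone none rose, and 1 rose with DESeq2, with counts thinned to the smallest library, without the filter on low counts, or with globins and Rn45s left out.

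The lists of cell cycle genes did not move alike. None of 44 DNA replication genes rose and 41 fell, with a median change of -0.35. Dut, which keeps uracil out of DNA, had 163 and 159 CPM at 150 nM and 250 and 251 CPM at 100 nM, a log2 change of -0.64 ± 0.04 with an adjusted p of 1.41e-18. Pold2, a subunit of DNA polymerase delta, had 93.2 and 90.1 CPM at 150 nM and 146 and 156 CPM at 100 nM, a change of -0.71 ± 0.05. Mcm2, part of the replicative helicase, had 823 and 790 CPM at 150 nM and 1044 and 1048 CPM at 100 nM, a change of -0.37 ± 0.03. Uhrf1, which carries DNA methylation through replication, changed by -0.47 ± 0.04. For these 4 genes the doses did not overlap, as in nearly all called genes. The 3 not called were Gins4 at -0.14, Cdc6 at -0.09 and Rfc2 at 0.02, named after their values were seen.

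Mitosis genes showed no shared direction, with 13 of 39 higher (33.3%) and 8 lower (20.5%) and a median change of 0.02. The share lower was near the 20.2% of all genes tested. Under library totals alone the split turned round to 7 higher and 14 lower. Without replicate 2 of 150 nM, 8 were higher. Cdc25b, a phosphatase that starts mitosis, had 558 and 557 CPM at 150 nM and 351 and 354 CPM at 100 nM (0.66 ± 0.04, adjusted p = 3.78e-19). Nusap1, a spindle protein, changed by 0.40 ± 0.04, Ube2c, an enzyme of mitotic exit, by 0.31 ± 0.03 and Cenpa, the centromeric histone, by 0.31 ± 0.04. Bub1b and Aurkb, of the spindle checkpoint and the chromosomal passenger complex, stood on the lower side at -0.28 and -0.21, both called and both picked out after their values were seen.

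Inhibitors of cyclin-dependent kinases and other antiproliferative genes rose in 8 of 12 cases and fell in none, with a median change of 0.63. Btg2, an antiproliferative gene of the p53 pathway, had 506 and 489 CPM at 150 nM and 322 and 325 CPM at 100 nM (0.62 ± 0.04, adjusted p = 2e-18). Cdkn1a, the inhibitor p21, had 401 and 425 CPM at 150 nM and 272 and 269 CPM at 100 nM (0.61 ± 0.04, adjusted p = 3.21e-18). Mxd1, which competes with MYC for its partner, changed by 0.91 ± 0.07 and Cdkn2c by 0.64 ± 0.10. Of 12 p53 targets 7 rose and none fell, among them Mdm2 at 0.56 ± 0.05 and Sesn2 at 0.58 ± 0.05. Of 21 genes of the G1 phase and the E2F family, 11 fell and 4 rose. The 19% that rose was near the 20.6% of all genes tested. Cdk4, the kinase of G1, had 358 and 345 CPM at 150 nM and 510 and 518 CPM at 100 nM (-0.55 ± 0.03), and its cyclins went apart, Ccnd2 at -0.34 ± 0.04 and Ccnd3 at 0.44 ± 0.03. Of 17 apoptosis regulators 5 rose (29.4%) and 3 fell (17.6%), against 20.6% and 20.2% of all genes tested. Without replicate 1 of 150 nM 3 rose, and without replicate 1 of 100 nM 1 fell. Bcl2l1, the survival factor BCL-XL, had 583 and 555 CPM at 150 nM and 334 and 333 CPM at 100 nM (0.77 ± 0.04, adjusted p = 1.76e-22).

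Ribosome biogenesis had the largest share of lower members among the 42 lists, with 40 of 41 genes lower, none higher and a median change of -0.56. Nolc1, a nucleolar scaffold, had 218 and 202 CPM at 150 nM and 357 CPM in both libraries at 100 nM, a log2 change of -0.76 ± 0.04 with an adjusted p of 2.22e-22. Npm1, the abundant nucleolar chaperone, had 1103 and 1083 CPM at 150 nM and 1585 and 1576 CPM at 100 nM, a change of -0.53 ± 0.03. Mybbp1a and Dkc1, of the nucleolus and of pseudouridine formation, changed by -0.53 ± 0.03 and -0.64 ± 0.04. In all 4 genes the doses were apart, as in nearly all called genes.

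The ribosomal proteins themselves did not follow. Of 77 tested, 8 rose (10.4%), 11 fell (14.3%) and 58 were not called, both shares below those of all genes tested (20.6% and 20.2%). Under library totals alone 5 rose and 36 fell, without replicate 2 of 100 nM 4 fell, and without replicate 1 of 150 nM 13 rose and 6 fell. Rpsa had 2672 and 2841 CPM at 150 nM and 2246 and 2284 CPM at 100 nM (0.28 ± 0.03). Translation factors were lower in 17 of 25 cases and higher in 5, and under library totals alone in 19 and 3. The 20% that were higher was near the 20.6% of all genes tested. Eef1g, an elongation factor subunit, changed by -0.38 ± 0.03 and Eif5a by -0.28 ± 0.03, whereas Pabpc1, which binds poly(A) tails, had 2745 and 2885 CPM at 150 nM and 2058 and 2077 CPM at 100 nM (0.44 ± 0.03). Of 20 aminoacyl-tRNA synthetases 18 fell and 1 rose, with Farsb at -0.41 ± 0.04 and Yars at -0.47 ± 0.04, and the 1 that rose was not called without replicate 1 or 2 of 100 nM, without replicate 1 of 150 nM, or in 6 other alternatives: library totals alone, DESeq2, counts thinned to the smallest library, a length trend removed, no filter on low counts, and globins and Rn45s left out. The bars of the gene lists show these contrasts side by side.

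**Figure D3:**
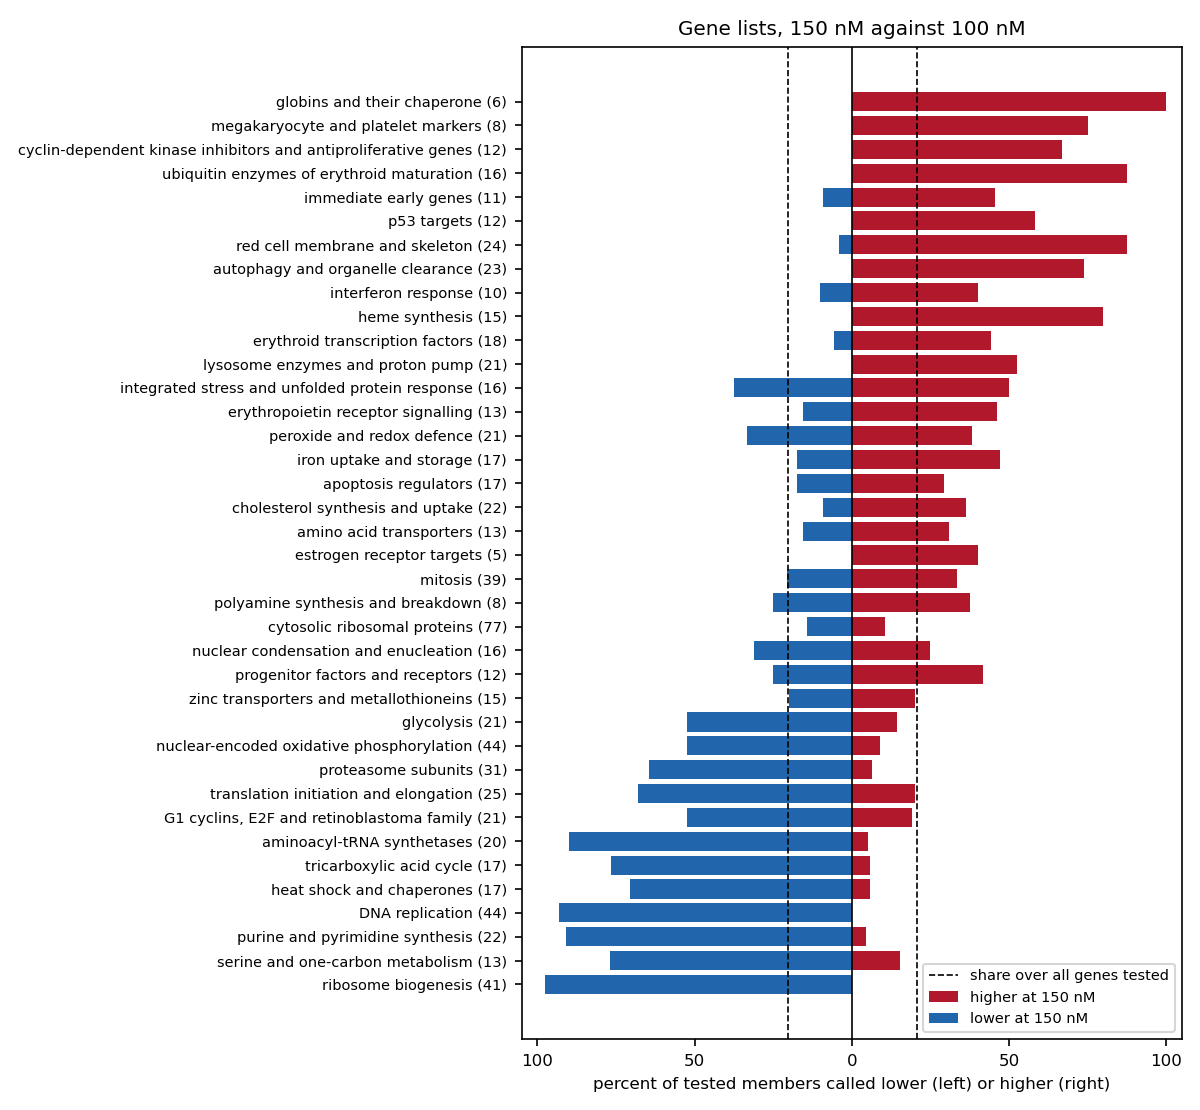
Percent of the tested members of each gene list called higher (red, right) or lower (blue, left) at 150 nM than at 100 nM, with the number tested in brackets, the lists ordered by median log2 change, and dashed lines for the shares over all genes tested (20.6% higher, 20.2% lower). Lists with under 5 tested members are left out, and ribosome biogenesis (40 of 41 lower) and DNA replication (41 of 44 lower) stand at the far left.

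Metabolism moved mainly down. Of 22 purine and pyrimidine synthesis genes 20 fell and 1 rose (median -0.50), of 13 genes of serine and one-carbon metabolism 10 fell and 2 rose (median -0.52), and of 17 genes of the tricarboxylic acid cycle 13 fell and 1 rose (median -0.29). The gene of that cycle that rose was not called without replicate 2 of 100 nM or replicate 1 of 150 nM, with library totals alone, with DESeq2, with a length trend removed, without the filter on low counts, or with globins and Rn45s left out. Of the serine and one-carbon genes, 1 rose when any of the 4 libraries was left out, with DESeq2, with counts thinned to the smallest library, without the filter on low counts and in a fit of the compared doses alone. Gart, an enzyme of several steps of purine synthesis, had 216 and 223 CPM at 150 nM and 384 CPM in both libraries at 100 nM (-0.81 ± 0.04, adjusted p = 6.74e-24). Mthfd1, an enzyme that moves one-carbon units on folate, had 259 and 269 CPM at 150 nM and 462 and 464 CPM at 100 nM (-0.81 ± 0.03, adjusted p = 1.88e-25). Cad, which starts pyrimidine synthesis, changed by -0.64 ± 0.04, Psat1, of serine synthesis, by -0.53 ± 0.03, and Idh3a and Suclg2, of the citric acid cycle, by -0.65 ± 0.04 and -0.84 ± 0.06.

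Of 21 glycolysis genes 11 fell and 3 rose. Ldha, lactate dehydrogenase, had 670 CPM in both libraries at 150 nM and 1106 and 1111 CPM at 100 nM (-0.73 ± 0.03, adjusted p = 3.02e-25). Tpi1 changed by -0.56 ± 0.03 and Slc16a1, a lactate transporter, by -0.65 ± 0.05. The 3 genes that rose were Bpgm, the enzyme that makes the allosteric regulator of hemoglobin, at 0.57, Slc2a3, a glucose transporter, at 0.94, and Aldoa, an aldolase, at 0.09, named after their values were seen. Nuclear genes of oxidative phosphorylation were lower in 23 of 44 cases and higher in 4, with small changes such as -0.40 ± 0.04 for Cyc1 and 0.25 ± 0.04 for Cox6a1. The count of those higher was 2 under library totals alone, without replicate 1 of 100 nM and without replicate 2 of 150 nM.

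Cholesterol genes were higher in 8 of 22 cases and lower in 2, and under library totals alone in 4 and 5. Without replicate 1 or 2 of 100 nM, or replicate 2 of 150 nM, 5 were higher. Polyamine genes rose in 3 of 8 cases and fell in 2 (37.5% and 25%, against 20.6% and 20.2% of all genes tested). Srm and Sms, which make spermidine and spermine, changed by -0.85 ± 0.15 and -0.75 ± 0.13, and Sat1, which starts their breakdown, by 0.79 ± 0.10. Of 13 amino acid transporters 4 rose and 2 fell, and under library totals alone 3 rose and 4 fell. Slc38a5, a glutamine carrier, had 75.8 and 84.8 CPM at 150 nM and 42.1 and 40.8 CPM at 100 nM (0.95 ± 0.09).

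Metal and redox genes had no shared direction. Mt1, the second metallothionein, had 147 and 146 CPM at 150 nM and 254 and 252 CPM at 100 nM (-0.79 ± 0.04, adjusted p = 8.41e-22). Slc30a2, a zinc transporter of vesicles, had 2.69 and 3.63 CPM at 150 nM and 9.74 and 9.29 CPM at 100 nM (-1.63 ± 0.19), whereas Slc30a1, the zinc exporter of the cell surface, had 51.8 CPM in both libraries at 150 nM and 34.4 and 35.4 CPM at 100 nM (0.57 ± 0.09). Zinc genes in all were higher in 3 and lower in 3 of 15 cases (20% each), near the 20.6% and 20.2% of all genes tested. Under library totals alone they were higher in 2 and lower in 5. Redox genes were higher in 8 and lower in 7 of 21 cases. Cat, catalase, was at 0.62 ± 0.03 and Prdx2, a peroxiredoxin abundant in red cells, at 0.43 ± 0.03, and Txn1, thioredoxin, was at -0.43 ± 0.03.

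Chaperones fell in 12 of 17 cases and rose in 1, a call lost without replicate 1 of either dose, with library totals alone and without the filter on low counts. Hspd1, a chaperone of the mitochondrial matrix, had 506 and 490 CPM at 150 nM and 812 CPM in both libraries at 100 nM (-0.70 ± 0.03, adjusted p = 1.62e-24). Stress response genes were higher in 8 and lower in 6 of 16 cases. Eif2ak1, the heme-regulated kinase of translation, had 559 and 551 CPM at 150 nM and 372 and 359 CPM at 100 nM (0.60 ± 0.03), and Ppp1r15a, which reverses its action, changed by 0.69 ± 0.05. Asns, asparagine synthetase, was at -0.24 ± 0.03. Immediate early genes were higher in 5 and lower in 1 of 11 cases, with Jun at 0.94 ± 0.14 and Klf6 at 0.75 ± 0.08. Interferon genes were higher in 4 and lower in 1 of 10 cases, and under library totals alone higher in 2. None was called lower without replicate 2 of 100 nM, without replicate 1 or 2 of 150 nM, or with DESeq2. Genes of nuclear condensation were higher in 4 and lower in 5 of 16 cases, with Lmna, a lamin, at 0.66 ± 0.03 and Hdac1, a histone deacetylase, at -0.55 ± 0.08. The count of those lower was 2 without replicate 1 or 2 of 100 nM or without replicate 2 of 150 nM, and 3 without replicate 1 of 150 nM or with DESeq2.

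Of 5 tested genes known as estrogen receptor targets in other tissues, 2 rose and none fell. Ctsd, the protease cathepsin D, had 1212 and 1142 CPM at 150 nM and 876 and 869 CPM at 100 nM (0.43 ± 0.03). Ctsd is also a lysosomal enzyme. The counts under Esr1, the estrogen receptor gene, were 154 and 156 CPM at 150 nM and 128 and 141 CPM at 100 nM (0.20 ± 0.07, adjusted p = 0.0309), a call lost with library totals alone, with counts thinned to the smallest library, with a length trend removed, and without replicate 1 of 100 nM or replicate 1 or 2 of 150 nM. Whether these reads come from the fusion or from the gene itself cannot be told apart. Nrip1, a corepressor that estrogen receptors induce elsewhere, had 21.3 CPM in both libraries at 150 nM and 19.6 and 21.4 CPM at 100 nM and was not called.

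Megakaryocyte genes, which also answer to GATA1, rose in 6 of 8 cases tested and fell in none, with a median change of 0.73. Itgb3, integrin beta 3, had 292 and 295 CPM at 150 nM and 170 and 160 CPM at 100 nM (0.83 ± 0.05, adjusted p = 5.61e-20). Tubb1 had 95.8 and 104 CPM at 150 nM and 45.8 and 41.3 CPM at 100 nM (1.19 ± 0.09). Over 9 markers the summed level was 426 and 436 CPM at 150 nM and 243 and 227 CPM at 100 nM, of which Itgb3 and Tubb1 made up most. The defining marker Gp1bb had no count in any of the 4 libraries. Whether these levels come from erythroid cells or from other cells was not tested.

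Markers of other cell types were near absent. The 10 granulocyte and macrophage markers summed to 2.31 and 1.99 CPM at 150 nM and 1.29 and 1.61 CPM at 100 nM, with Mpo, Lyz2, S100a8 and S100a9 at 0. The 6 mast cell and basophil markers summed to 1.31 and 1.64 CPM at 150 nM and 1.43 and 1.32 CPM at 100 nM. Lymphocyte markers did not pass 0.146 CPM, nor fibroblast and endothelial markers 0.461 CPM, in any of the 4 libraries. As lists of genes tested, none of 3 granulocyte and macrophage genes and not the 1 fibroblast or endothelial gene, Vim, was called, and no lymphocyte gene had enough counts. Of 4 mast cell genes, Srgn, a proteoglycan of granules, rose at 5.15 and 5.74 CPM at 150 nM and 3.15 and 3.22 CPM at 100 nM, and Il1rl1, an interleukin receptor, fell at 1.62 and 1.41 CPM at 150 nM and 5.3 and 3.88 CPM at 100 nM. The call of Srgn was lost without replicate 1 or 2 of 100 nM, without replicate 2 of 150 nM and with DESeq2.

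The step was then set against its neighbours of the same width of 50 nM, which share the 100 nM or the 150 nM libraries with it. These steps are equal in nM but not in fold of dose, and the test compares log2 changes. From 50 to 100 nM 5417 genes were called (53.7%), with 537 at least 2-fold higher (5.33%) and 223 at least 2-fold lower (2.21%), and from 150 to 200 nM 3966 were called (39.3%). In the test of the difference itself, 922 genes (9.15%) changed differently from 100 to 150 nM than from 50 to 100 nM, 219 with a higher change (2.17%) and 703 with a lower change (6.97%). Without replicate 1 of 100 nM these counts were 87 and 355, and without replicate 2 of 100 nM they were 94 and 412. Against the step from 150 to 200 nM, 201 genes (1.99%) differed, 151 with a higher change (1.5%) and 50 with a lower change (0.496%). These counts fell to 88 and 30 without replicate 1 of 150 nM, to 66 and 17 without replicate 2 of 150 nM, and to 99 and 29 without replicate 2 of 100 nM. The lower count was 27 without replicate 1 of 100 nM and 32 without replicate 2 of 200 nM.

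On the log2 scale, genes of the red cell product rose by less than they had from 50 to 100 nM. The difference of the steps was lower for 5 of 6 globins, 13 of 15 heme genes and 18 of 24 membrane genes (6.97% of all genes). It was higher for none of them (2.17%). Alas2 changed by 0.85 from 100 to 150 nM and by 2.22 from 50 to 100 nM, and Slc4a1 by 0.76 and 2.08 over the same steps. For both genes the rises in CPM were closer to each other. Alas2 had 314 and 327 CPM at 50 nM, 1504 and 1482 CPM at 100 nM and 2748 and 2652 CPM at 150 nM. Slc4a1 had 662 and 667, 2819 and 2814, and 4854 and 4671 CPM at these doses. The exception among the globins was Hbb-y, with log2 changes of 2.90 from 50 to 100 nM, 2.76 from 100 to 150 nM and 2.96 from 150 to 200 nM. For Hbb-y neither difference was called. It had only 0.444 and 0.249 CPM at 50 nM, so its change from 50 to 100 nM is uncertain. Fewer of these genes differed from the step to 200 nM, with 1 globin, 2 heme genes and 1 membrane gene higher and Piezo1 lower. Over all genes, 1.5% were higher and 0.496% lower in that test.

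DNA replication genes fell more from 100 to 150 nM than from 50 to 100 nM. From 50 to 100 nM 18 of 44 fell (26.4% of all genes fell) and 6 rose (27.3% of all genes rose), from 100 to 150 nM 41 fell and none rose, and from 150 to 200 nM 41 fell (19.9% of all genes) and none rose (19.4%). The change was lower than from 50 to 100 nM for 29 of the 44 (6.97% of all genes) and higher for none (2.17%). It was higher than from 150 to 200 nM, that is a smaller fall, for 7 (1.5% of all genes). Mcm2 changed by -0.15 from 50 to 100 nM, by -0.37 from 100 to 150 nM and by -0.47 from 150 to 200 nM, and Uhrf1 by -0.22, -0.47 and -0.75 over these steps.

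The balance of mitosis genes differed between the steps. From 50 to 100 nM 25 of 39 rose and 2 fell (27.3% and 26.4% of all genes). From 100 to 150 nM 13 rose and 8 fell (20.6% and 20.2%), and from 150 to 200 nM 5 rose and 17 fell (19.4% and 19.9%). The 20.5% lower from 100 to 150 nM was near the share of all genes. The difference was called for 13 against the step from 50 to 100 nM, all with the lower change from 100 to 150 nM (6.97% of all genes). It was called for 4 against the step to 200 nM, all with the higher (1.5%). Cdc25b changed by 1.95 from 50 to 100 nM, by 0.66 from 100 to 150 nM and by 0.32 from 150 to 200 nM. Ribosome biogenesis genes fell in all 3 steps, with 40 of 41 lower from 50 to 100 nM, 40 from 100 to 150 nM and 36 from 150 to 200 nM. Their difference was called for 2 genes against the lower step (9.15% of all genes) and for none against the upper one (1.99%). Nolc1 changed by -0.69 from 50 to 100 nM, by -0.76 from 100 to 150 nM and by -0.79 from 150 to 200 nM.

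**Figure D4:**
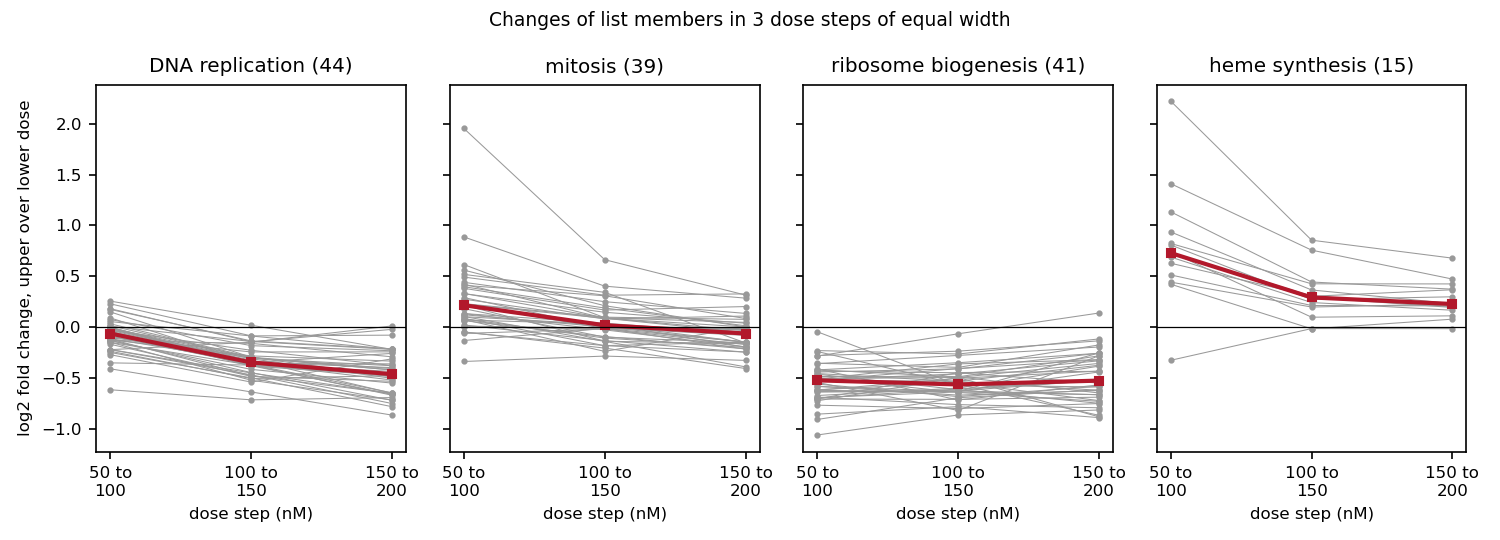
Log2 fold change (vertical axis) of each tested member (grey lines) and the median (red) in the steps from 50 to 100, 100 to 150 and 150 to 200 nM for 4 gene lists, with the number of members in brackets. Of 15 heme synthesis genes 12 rose from 100 to 150 nM, of 44 DNA replication genes 41 fell in that step, and Mcm2 changed by -0.15, -0.37 and -0.47.

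Some genes changed differently in this step than in the next. Grifin, a galectin relative first known from the lens, averaged 7.45 CPM at 100 nM, 19.8 CPM at 150 nM and 21.4 CPM at 200 nM. Sphk1, sphingosine kinase 1, averaged 73.7 CPM at 100 nM, 45.1 CPM at 150 nM and 48.5 CPM at 200 nM. Kcnq1ot1 is a long antisense RNA of an imprinted region, and without strand its reads cannot be told from those of the overlapping Kcnq1. It averaged 56.1 CPM at 100 nM, 34.4 CPM at 150 nM and 47.5 CPM at 200 nM. Its level also moved at low doses, with 56.7 and 63.4 CPM at 0 nM and 24.9 and 23.6 CPM at 12.5 nM. For Grifin, Sphk1 and Kcnq1ot1 the difference of the steps was called, though for Grifin not without replicate 2 of 150 nM.

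The plots over all doses show where along the series the step lies.

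**Figure D5:**
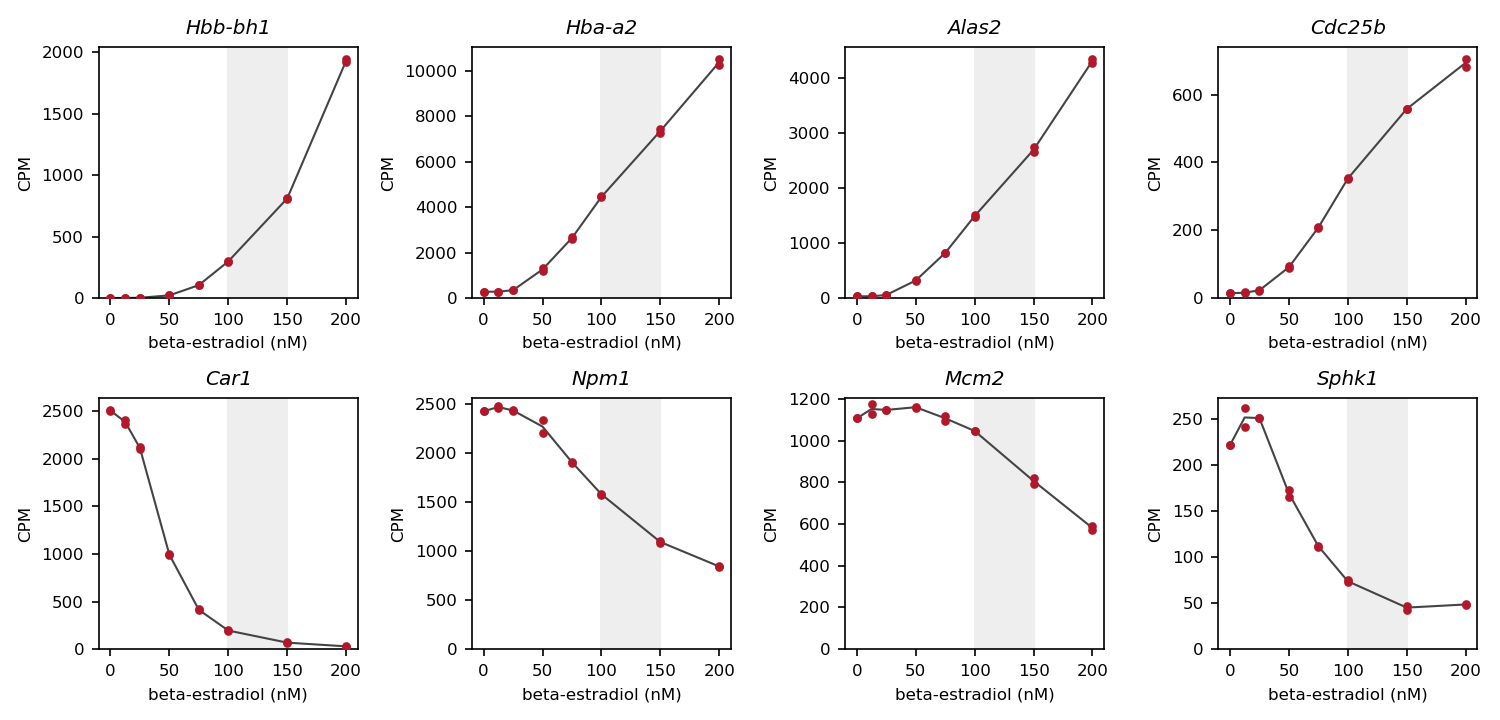
TMM-scaled CPM (vertical axis, from 0) of 8 genes at each of the 8 doses of beta-estradiol (horizontal axis, nM), with 1 red point per library, a line through the means and the step from 100 to 150 nM shaded. Hbb-bh1, Hba-a2, Alas2 and Cdc25b were higher and Car1, Npm1, Mcm2 and Sphk1 lower at 150 nM than at 100 nM, with Car1 at 70.2 and 65 CPM against 186 and 203 CPM.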

How the data were processed

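RNA of G1E-ER4 cells was sequenced after Smart-seq2 amplification. The authors deposited a table of read counts by gene symbol, made with bcl2fastq, STAR and mm10 per the submitters' processing notes. Which program did the counting, with which annotation and strand setting, was not given in the sources used here. All values are whole and library totals differ, so the deposited counts were treated as raw.

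Genes were kept with filterByExpr, scaled by TMM and fitted in R 4.3.3 with edgeR 4.0.16 (limma 3.58.1), using a quasi-likelihood model with robust dispersion over all 16 libraries and dose as a factor. Contrasts were 150 minus 100 nM, and that step minus each neighbour of 50 nM width. P-values were adjusted by Benjamini-Hochberg over the 10080 genes tested and called under 0.05. The standard error (SE) is that of the log2 fold change. Levels are TMM-scaled CPM. Alternatives were DESeq2 1.42.0, RLE factors, library totals alone, other filters, thinning to 9393156 counts, a length trend removed (lowess span 0.3), the compared doses alone and leaving out each library. With 2 libraries against 2, an exact permutation test of a single gene cannot go below p = 0.333. PCR reads without molecular identifiers are not independent molecules.

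The fit was tested on simulated data with known answers. It called 50% of genes changed 1.25-fold, 68% at 1.5-fold, 88% at 2-fold and 100% at 4-fold, with 50 genes each. Of 9621 unchanged genes, 3 were called. A gene that was not called can therefore still have changed by a small fold. Whether replicate numbers pair libraries across doses is not stated, and the main fit used no pairing. Correlations of replicate differences between doses ran from -0.191 (25 and 50 nM) to 0.159 (50 and 200 nM), which cannot settle it.

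The members and the 42 gene lists were chosen with earlier results of these data known. Named were the 12 highest and 12 lowest called log2 changes at 20 CPM or more with 4 of 4 pairings one way, the 3 highest and 3 lowest of each difference of steps, up to 4 members of each list with the smallest adjusted p at 5 CPM or more, and Gata1 and Gata2. Unnamed gene models and mitochondrial genes were not named. The older symbols Beta-s and Mfsd7b were matched after the table was seen. Gene positions and promoters are from RefSeq (GRCm38.p6).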

Additional observations from a re-analysis of the deposited data

Results flagged for a closer look

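Each gene here changed differently from 100 to 150 nM than in a neighbouring step of the same width, by edgeR's quasi-likelihood test of the difference with Benjamini-Hochberg adjustment, and was among the 3 highest or 3 lowest such differences at 20 CPM or more. Values are the log2 change from 100 to 150 nM minus that of the other step. The steps share libraries and are equal in nM, not in fold of dose.

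Against the step from 150 to 200 nM, Grifin differed by 1.281, Zbtbd6 by 0.9332 and Arhgef10l by 0.9201. Grifin rose from 100 to 150 nM (1.40) and changed by 0.12 after it. Arhgef10l was not called from 100 to 150 nM (0.06) and changed by -0.86 from 150 to 200 nM. Kcnq1ot1 differed by -1.194, Sphk1 by -0.8352 and Mt2 by -0.826. The level of Kcnq1ot1 also moved between 0 and 12.5 nM, as given above. The call of Grifin was lost without replicate 2 of 150 nM and that of Mt2 without replicate 1 of 150 nM. That of Zbtbd6 was lost with DESeq2 and without replicate 2 of 100 nM, replicate 1 or 2 of 150 nM, or replicate 2 of 200 nM.

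Against the step from 50 to 100 nM, Lgals9, the gene of galectin-9, differed by 1.737, Ces2g, a carboxylesterase, by 1.144 and Fam198b by 1.114. Lgals9 changed by 0.11 from 100 to 150 nM, which was not called, and by -1.63 from 50 to 100 nM. Ces2g rose by 0.87 from 100 to 150 nM. Hbb-bh1 differed by -2.32, Hba-x by -2.18 and Acot11, a thioesterase of fatty acids, by -2.102. These 3 rose in both steps, Hbb-bh1 by 1.44 from 100 to 150 nM and 3.76 from 50 to 100 nM, Hba-x by 1.48 and 3.66, and Acot11 by 0.88 and 2.99.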

How the results depend on the processing

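No called log2 change of a named gene reversed its sign in any alternative run. The counts of genes higher and lower at 150 nM than at 100 nM were within 1.5 times of 2081 and 2039 in every alternative run, from 1637 to 1775 higher and from 1639 to 1779 lower when 1 library was left out, with 95 to 121 and 83 to 97 at least 2-fold higher and lower. DESeq2 gave 76 genes at least 2-fold higher. Differences between steps were less stable. Against the step to 200 nM, 151 higher and 50 lower became 94 and 24 with DESeq2, 233 higher with library totals alone, 31 lower after thinning, and 66 to 121 higher and 17 to 37 lower without 1 library. Against the step from 50 nM, 219 and 703 became 124 and 456 with DESeq2 and 87 to 217 and 355 to 696 without 1 library. The cause was not tested, and leaving out a library changes both how many libraries are used and which ones. With a replicate block 4073 genes were called at 150 nM against 100 nM, near the 4120 without it. Replicate differences at 100 and 150 nM correlated at -0.0361, which does not settle whether replicate numbers pair the libraries. With library totals alone the split between higher and lower moved, as given beside the counts, and the median log2 change of all genes was -0.08. The globin list has no value where globins were left out. The median SE of a log2 change was 0.0961 with 2 libraries a dose and was smaller for abundant genes; replicate 2 of 150 nM had the fewest counts.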
